A study of Mus musculus with 32 samples.

Results

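*Glul*, *Glud1*, *Slc25a22*, *Arg1*, *Arg2*, *Nos2*, *Ass1*, *Acod1* and *Odc1* code for proteins that decide the fate of glutamine, glutamate, arginine and ornithine or make itaconate. These 9 genes, of 54281 gene identifiers in the count table, were followed through bone marrow-derived macrophages (BMDMs) after inducible loss of *Trex1*. They were chosen by name, with measured values in view: *Glul* was lower and *Slc25a22* higher after *Trex1* loss in these same libraries. Their differences between 4-OHT-treated genotypes are therefore given as a description and without a test. All 9 passed the filter on low counts, although *Arg1*, *Arg2* and *Nos2* were sparse in most libraries.

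Macrophages were grown in medium conditioned by L929 cells from the marrow of *R26* CreERT2 mice that were either *Trex1* FL/FL or *Trex1* WT/FL. All 4 groups carry CreERT2, a Cre recombinase expressed from the *Rosa26* locus that becomes active when 4-hydroxytamoxifen (4-OHT) binds to it, and at least 1 loxP-flanked *Trex1* allele, so that 4-OHT also deletes 1 allele in WT/FL cells. Cells of both genotypes received 2 µg/ml 4-OHT for 22 h or were left untreated, and RNA was sequenced 1, 2, 3 and 4 days after 4-OHT was withdrawn. The 16 groups had 2 libraries each, 32 in all. No age or sex of the mice was given in the labels, nor the animal, batch or replicate number of a library, so p-values measure the spread between these libraries, which may be technical. The medium supplied glutamine as the dipeptide L-alanyl-L-glutamine in all groups.

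Macrophages take up glutamine and glutamate and can send their carbon into the mitochondrial citric acid cycle. Glutamine synthetase, the product of *Glul*, runs in the opposite direction and makes glutamine from glutamate and ammonia. Arginine is split by arginases into ornithine and urea or oxidised by inducible nitric oxide synthase to nitric oxide and citrulline, and activated macrophages are known for shifting between these routes and for making itaconate from the citric acid cycle intermediate cis-aconitate.

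*Trex1*, the targeted gene, had 0 counts in 6 of 8 4-OHT-treated FL/FL libraries and 14 and 9 counts in those of day 2, against 758 to 3622 counts in 4-OHT-treated WT/FL libraries. The total per library ranged from 35120505 to 63760884 estimated counts. The macrophage markers *Adgre1*, *Csf1r*, *Cd68*, *Itgam*, *Mertk*, *Fcgr1* and *Lyz2* were all detected, with a summed level of 15024 to 47900 counts scaled to library size (CPM). Neutrophil and granule precursor markers summed to 5.60 to 22.9 CPM, fibroblast markers to at most 2.27 CPM, dendritic cell markers to at most 2.12 CPM and lymphocyte markers to at most 0.073 CPM.

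Levels of different genes were compared per kilobase of annotated exon (RPKM). In the 16 untreated libraries the median was 120 RPKM for *Glul*, 62.7 for *Acod1*, 60.2 for *Glud1*, 44.1 for *Ass1*, 8.08 for *Odc1*, 5.18 for *Slc25a22*, 0.304 for *Arg2*, 0.0993 for *Nos2* and 0.0174 for *Arg1*. Every neighbouring pair in this order overlapped in its range over the untreated libraries, apart from *Slc25a22* (4.33 to 7.98) and *Arg2* (0.0318 to 1.01). *Glul* ranged from 51.9 to 190 RPKM and *Acod1* from 46.9 to 113 RPKM in these libraries.

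Promoter windows were taken from RefSeq (GRCm38.p6) for 6 of the 9 genes, in 8 windows of 250 bases before a start site. *Nos2*, *Arg1* and *Arg2* had no entry. The windows of *Glul* and *Slc25a22*, the genes that led to the choice, and that of *Acod1*, the gene whose level followed *Slc25a22* most closely among the 9, are shown with matches in capitals.

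*Glul*, chr1:153899679-153899928, + strand: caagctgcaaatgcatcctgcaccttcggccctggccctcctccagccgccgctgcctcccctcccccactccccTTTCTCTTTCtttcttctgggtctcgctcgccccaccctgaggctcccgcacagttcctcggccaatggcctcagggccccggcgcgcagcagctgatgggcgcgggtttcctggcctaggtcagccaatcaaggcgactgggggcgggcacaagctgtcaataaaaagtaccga

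*Slc25a22*, the second of 3 windows, chr7:141435376-141435625, - strand: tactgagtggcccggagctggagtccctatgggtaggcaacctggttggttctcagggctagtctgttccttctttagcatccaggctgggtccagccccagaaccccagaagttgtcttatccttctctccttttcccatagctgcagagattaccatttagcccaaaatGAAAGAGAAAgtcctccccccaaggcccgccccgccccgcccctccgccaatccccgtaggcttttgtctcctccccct

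*Acod1*, chr14:103046762-103047011, + strand: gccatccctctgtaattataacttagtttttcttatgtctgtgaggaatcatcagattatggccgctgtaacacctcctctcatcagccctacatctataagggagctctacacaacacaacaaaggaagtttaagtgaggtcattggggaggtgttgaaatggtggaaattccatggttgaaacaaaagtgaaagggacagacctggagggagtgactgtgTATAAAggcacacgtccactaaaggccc

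Both *Glul* and *Slc25a22* held letters of the type of an interferon-stimulated response element, searched as GAAANNGAAA on both strands, a pattern found in 2.98% of 32851 windows. In *Glul* the match was TTTCTCTTTC and began 175 bases before the start, and in *Slc25a22* it was GAAAGAGAAA and began 79 bases before the start. *Acod1* held TATAAA 28 bases before the start (12.4% of windows), and *Ass1* held the E-box CACGTG 36 bases before its start (6.02% of windows). The searches for TTCNNNGAA (7.02% of windows), TGATGNAA (3.45%) and the NF-κB site (3.90%) matched no window of the 6 genes, and no 2 matches overlapped. A match of letters is a description and not a binding site. *Glul* and *Slc25a22* led to the choice because they lay on opposite sides after *Trex1* loss, so their directions are no evidence about these letters. Any part of the letters in either difference was not tested.

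The first comparison set 4-OHT-treated FL/FL against 4-OHT-treated WT/FL BMDMs of the same day, and asks how these genes stood once both *Trex1* alleles were lost. *Glul* was about level between the genotypes on day 1 and lower in FL/FL cells from day 2 on, while *Slc25a22*, *Nos2*, *Ass1* and *Acod1* were higher from day 2 on. *Odc1* was slightly higher on days 2 and 4, and *Glud1* differed little. Beyond the threshold used for all other genes in this work (adjusted p below 0.01) stood 0 of the 9 on day 1, 6 on day 2 (5 higher, 1 lower), 4 on day 3 (3 higher, 1 lower) and 6 on day 4 (5 higher, 1 lower). The shares of all 15257 tested genes were 0.0197%, 8.17%, 12.1% and 21.5% on these days. Since the genes were chosen on this contrast, their counts are given for orientation and are not a test. *Nos2* and *Odc1* are counted on days 2 and 4, and their values with the difference between untreated genotypes subtracted are given below. With the study's additional limit of an absolute log2 fold change above 1.5, 1 of the 9 (*Nos2*) remained on day 2, 0 on day 3 and 1 (*Nos2*) on day 4, against 0.583%, 0.872% and 2.98% of all genes. In bulk RNA, fewer cells of a type and less RNA per cell cannot be told apart.

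**Figure D1:**
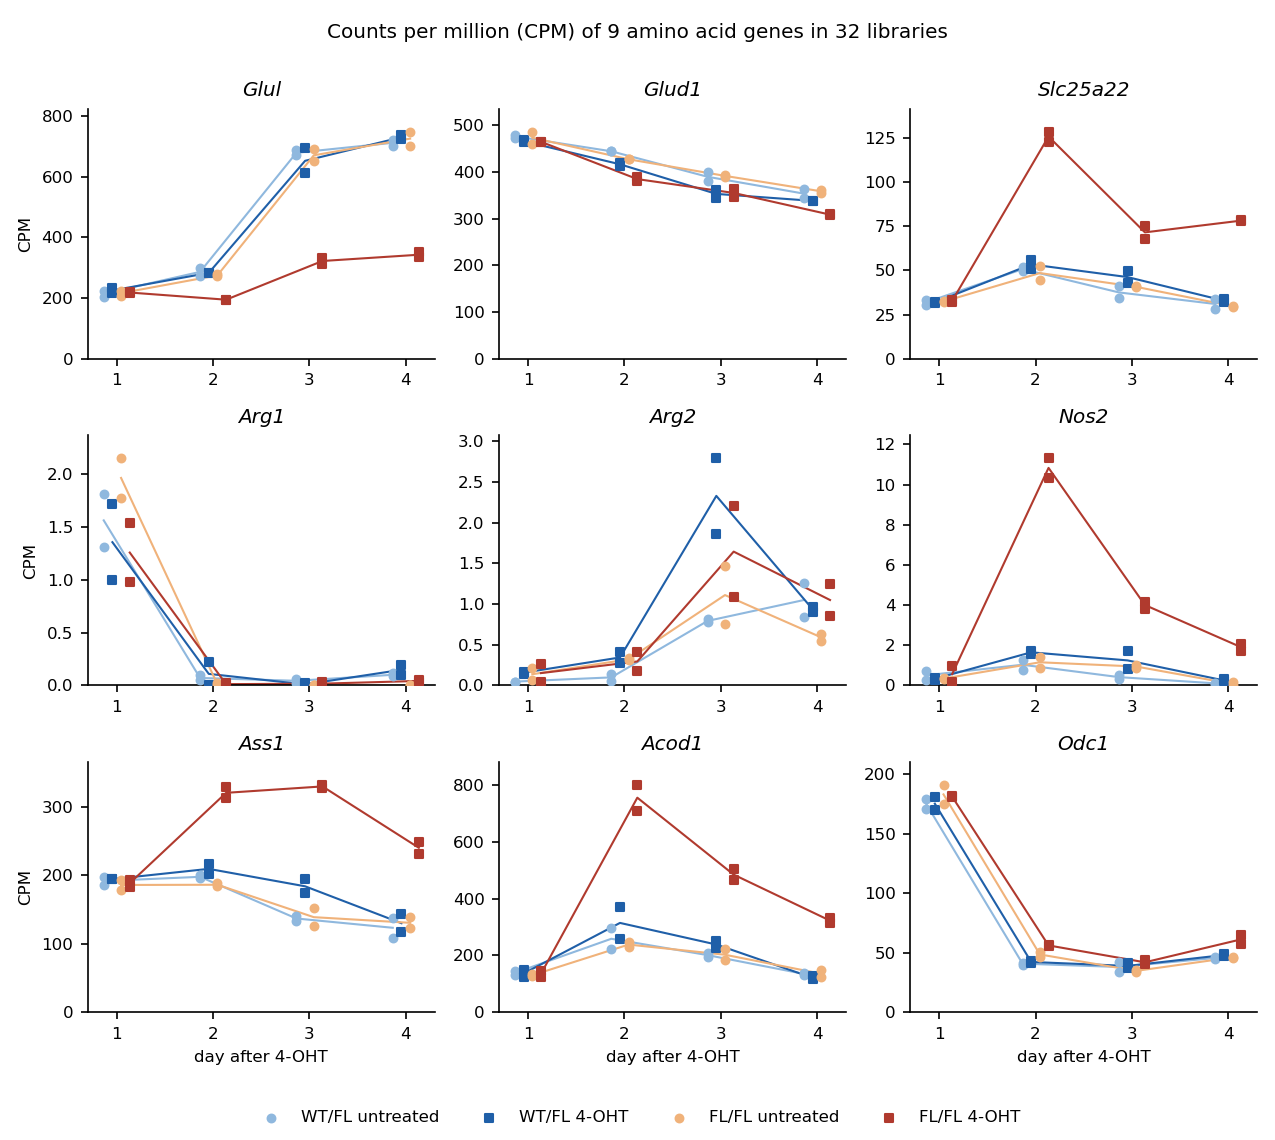
CPM of each of the 9 genes on the y axis against day after 4-OHT on the x axis; points are single libraries (2 per group) and lines join group means. *Glul* in 4-OHT-treated FL/FL cells stayed between 194 and 351 CPM while the other groups reached 611 to 749 CPM on days 3 and 4, and *Slc25a22*, *Nos2*, *Ass1* and *Acod1* stood above the other groups from day 2 on.

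*Glul* (chr1:153775690-153785469, GRCm39, + strand) had 221 and 216 CPM on day 1 in 4-OHT-treated FL/FL cells, 194 and 195 on day 2, 311 and 334 on day 3 and 335 and 351 on day 4. In 4-OHT-treated WT/FL cells it had 234 and 217 CPM on day 1, 284 and 283 on day 2, 694 and 611 on day 3 and 737 and 723 on day 4. The groups overlapped on day 1 and lay apart on days 2, 3 and 4, with both FL/FL libraries lower. From day 1 to day 4 the log2 fold changes were -0.04, -0.54, -1.02 and -1.09, with standard errors of 0.0630 to 0.0635. On day 4 the mean was 343 ± 11.5 CPM in FL/FL and 730 ± 9.83 CPM in WT/FL cells (SD, n = 2).

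Untreated cells served as a second reference for *Glul*. Untreated FL/FL libraries had 225 and 208 CPM on day 1, 278 and 272 on day 2, 651 and 690 on day 3 and 749 and 702 on day 4. Untreated WT/FL libraries had 224 and 205, 300 and 272, 670 and 688, and 722 and 701 CPM on the same days. Thus the 3 groups that kept *Trex1* transcripts lay together and climbed between days 2 and 3, and the 4-OHT-treated FL/FL cells stood below all 3 from day 2 on. Against untreated FL/FL cells the log2 fold change was 0.01, -0.50, -1.06 and -1.08 on days 1 to 4, a comparison that shares its treated libraries with the first. The summed macrophage markers were also lower in 4-OHT-treated FL/FL cells on day 2 (26245 and 28253 CPM against 31671 and 33691 in WT/FL) and day 3 (38735 and 38258 against 47292 and 45021), and overlapped on day 4 (30511 and 28567 against 30996 and 30227). This sum was mainly *Lyz2*, which had 11134 to 33994 CPM over all libraries, while *Csf1r*, the next highest marker, reached 6240 CPM. The part of these markers in the *Glul* difference was not tested.

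*Glud1* (chr14:34032583-34067642, + strand) codes for glutamate dehydrogenase, which converts glutamate to α-ketoglutarate in mitochondria. On day 4 it had 308 and 310 CPM in 4-OHT-treated FL/FL, 338 and 339 in 4-OHT-treated WT/FL, 356 and 361 in untreated FL/FL and 364 and 344 in untreated WT/FL libraries. The treated FL/FL libraries were the lowest on that day, by a margin that was small beside the fall over days seen in every group. The log2 fold change against WT/FL was -0.0038, -0.11, 0.0084 and -0.13 over the 4 days, with standard errors of 0.0453 to 0.0455.

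*Slc25a22* (chr7:141009649-141017832, - strand) codes for a mitochondrial carrier that imports glutamate. It had 33.4 and 32.1 CPM on day 1 in 4-OHT-treated FL/FL cells, 128 and 123 on day 2, 75.1 and 67.8 on day 3 and 77.7 and 78.5 on day 4. In 4-OHT-treated WT/FL cells it had 32.3 and 31.5, 55.8 and 50.9, 42.9 and 49.4, and 32.2 and 33.6 CPM. The groups overlapped on day 1 and both FL/FL libraries were higher on the other days, with the highest level on day 2. From day 1 to day 4 the log2 fold changes were 0.04, 1.24, 0.63 and 1.25, with standard errors of 0.087 to 0.089.

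In untreated FL/FL libraries *Slc25a22* had 32.7 and 31.9, 52.2 and 44.7, 40.9 and 40.4, and 30.1 and 29.4 CPM on days 1 to 4. In untreated WT/FL libraries it had 30.4 and 33.4, 51.9 and 49.5, 34.1 and 40.9, and 28.3 and 33.7 CPM. All groups had a peak on day 2, and from then on the treated FL/FL libraries lay above every library of the other groups of the same day. Against untreated FL/FL cells the log2 fold change was 0.02, 1.37, 0.81 and 1.39 on days 1 to 4.

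The arginases were scarce. *Arg1* (chr10:24791118-24803817, - strand), the cytosolic arginase, had 47 to 123 counts per library on day 1 in all 4 groups and 0 to 12 counts on days 2 to 4. On day 4 it had 2 and 1 counts in 4-OHT-treated FL/FL, 6 and 9 in 4-OHT-treated WT/FL, 0 and 0 in untreated FL/FL and 6 and 3 in untreated WT/FL libraries. At these counts no fold change between the genotypes after day 1 was read from it. *Arg2* (chr12:79177524-79203075, + strand), the mitochondrial arginase, had 2 to 129 counts per library. In treated cells its libraries overlapped between genotypes on all 4 days, with 1.08 and 2.21 CPM in FL/FL and 1.87 and 2.79 CPM in WT/FL cells on day 3, its highest day. A difference in *Arg2* was not detectable at this depth.

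*Nos2* (chr11:78811613-78851080, + strand), inducible nitric oxide synthase, had 0.167 and 0.967 CPM on day 1 in 4-OHT-treated FL/FL cells, 10.3 and 11.3 on day 2, 4.18 and 3.83 on day 3 and 1.72 and 2.09 on day 4. In 4-OHT-treated WT/FL cells it had 0.373 and 0.289, 1.57 and 1.73, 0.799 and 1.70, and 0.203 and 0.303 CPM. Both FL/FL libraries were higher on days 2, 3 and 4, and the day 1 libraries of FL/FL spanned those of WT/FL. The log2 fold change was 2.71 on day 2 (standard error 0.517), 1.69 on day 3 (0.514) and 2.92 on day 4 (0.602). It was 0.78 on day 1 (0.595), and -0.98 without the second FL/FL library of that day. On day 3 untreated FL/FL libraries (1.03 and 0.860 CPM) were also above untreated WT/FL libraries (0.299 and 0.533 CPM), without overlap. With the untreated difference subtracted *Nos2* stood at 2.56 on day 2 (standard error 0.732) and 3.17 on day 4 (1.17), with a wider standard error on each day. The day 3 value was 0.50 (0.788) after this subtraction. With no subtraction, leaving out the second 4-OHT-treated WT/FL library of day 3 moved the value of 1.69 to 2.32. On day 4 untreated libraries had 0.148 and 0 CPM in FL/FL and 0.0951 and 0.117 CPM in WT/FL cells. The highest count of the gene in any library was 418, and its highest level of 2.55 RPKM remained below the median of *Slc25a22*.

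*Ass1* (chr2:31352181-31410862, + strand) codes for argininosuccinate synthase, with which citrulline is recycled to arginine. It had 183 and 193 CPM on day 1 in 4-OHT-treated FL/FL cells, 312 and 328 on day 2, 332 and 327 on day 3 and 249 and 231 on day 4. WT/FL cells after 4-OHT had 194 and 194, 202 and 216, 173 and 194, and 142 and 117 CPM. The FL/FL libraries were higher on days 2 to 4, and on day 1 slightly below those of WT/FL. Its log2 fold change was -0.04, 0.61, 0.84 and 0.89 on days 1 to 4, with standard errors of 0.100 to 0.101. Untreated libraries of both genotypes had 184 to 200 CPM on day 2, 125 to 152 CPM on day 3 and 109 to 138 CPM on day 4.

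*Acod1* (chr14:103284413-103294009, + strand) codes for the enzyme that makes itaconate. It had 124 and 146 CPM on day 1 in 4-OHT-treated FL/FL cells, 710 and 801 on day 2, 503 and 465 on day 3 and 331 and 313 on day 4. In WT/FL cells given 4-OHT it had 122 and 150, 258 and 370, 225 and 251, and 126 and 116 CPM. Both FL/FL libraries were higher on days 2 to 4 and the groups overlapped on day 1. Its log2 fold change was -0.01, 1.27, 1.03 and 1.42 on days 1 to 4, with standard errors of 0.163 to 0.165. Untreated libraries had 221 to 295 CPM on day 2, 182 to 222 CPM on day 3 and 123 to 147 CPM on day 4. Thus *Acod1*, like *Slc25a22*, peaked on day 2 in every group.

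*Odc1* (chr12:17594383-17601507, + strand) codes for ornithine decarboxylase, the entry into polyamine synthesis. It had 181 and 182 CPM on day 1 in 4-OHT-treated FL/FL cells, 55.5 and 56.7 on day 2, 40.2 and 43.5 on day 3 and 57.2 and 65.3 on day 4. In 4-OHT-treated WT/FL cells it had 181 and 170, 41.4 and 42.95, 40.9 and 36.8, and 47.4 and 48.6 CPM. The drop between days 1 and 2 was shared by all groups, and the FL/FL libraries were higher on days 2 and 4 and overlapped with WT/FL on days 1 and 3. The log2 fold change was 0.05, 0.41, 0.11 and 0.35 on days 1 to 4, with standard errors of 0.077 to 0.082. Untreated FL/FL libraries already stood above untreated WT/FL libraries on day 2, with 50.97 and 46.01 against 41.55 and 40.00 CPM. Against untreated FL/FL cells the day 2 value was 0.21, and with the difference between untreated genotypes subtracted it was 0.16 (standard error 0.115). The day 4 value was 0.34 (0.115) after this subtraction, against 0.35 (0.081) before it.

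**Figure D2:**
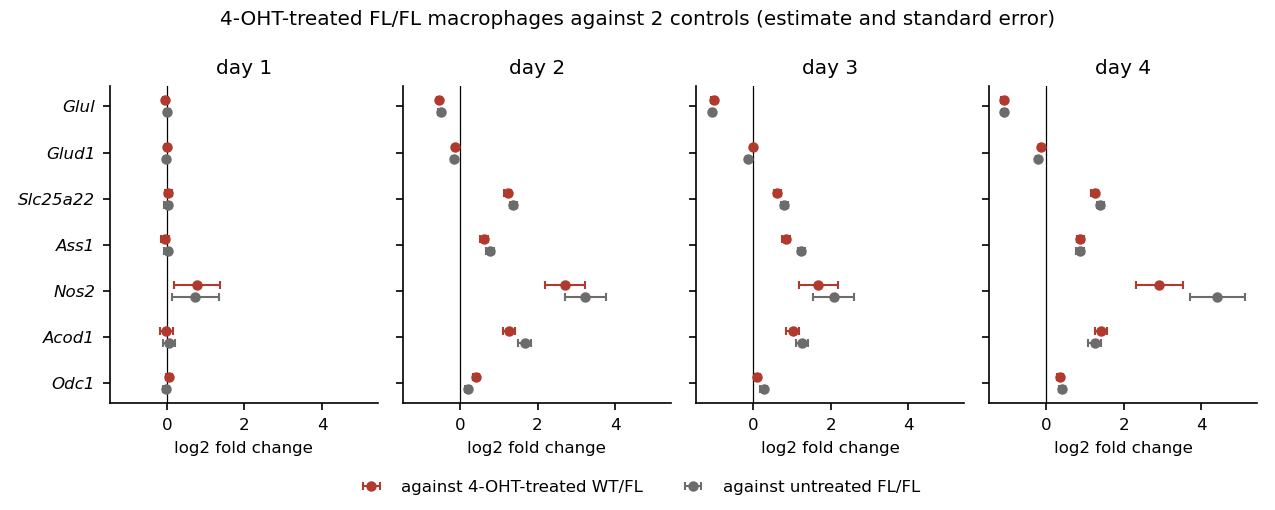
Log2 fold change (x axis) of 7 genes in 4-OHT-treated FL/FL cells on each day, against 4-OHT-treated WT/FL cells (red) and against untreated FL/FL cells (grey); points are edgeR estimates, bars are standard errors, and both share the treated libraries. *Arg1* and *Arg2* are left out for low counts; from day 2 on *Glul* lies left of 0 and *Slc25a22*, *Ass1*, *Nos2* and *Acod1* lie right of it against both controls.

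Untreated libraries, which the choice of genes did not use, allow tests. Untreated FL/FL and untreated WT/FL BMDMs were compared as the mean over 4 days, to see whether the genotypes differed without Cre activation. With edgeR 0 of the 9 genes passed (0.0197% of all genes did), 2 (*Arg1* and *Arg2*) had an unadjusted p below 0.05, and DESeq2 called 0. The 95% interval of the log2 difference (FL/FL minus WT/FL) was -0.075 to 0.058 for *Glul*, -0.058 to 0.038 for *Glud1*, -0.090 to 0.099 for *Slc25a22*, -0.11 to 0.099 for *Ass1*, -0.22 to 0.12 for *Acod1* and -0.037 to 0.14 for *Odc1*. It was wider for the sparse genes, with 0.0029 to 1.42 for *Arg2* and -0.63 to 0.89 for *Nos2*. *Arg1* had 0 and 1, 0 and 0, and 0 and 0 counts on days 2 to 4 in untreated FL/FL libraries, against 5 and 2, 3 and 1, and 6 and 3 counts in untreated WT/FL libraries. It had the smallest p of the 9 (edgeR adjusted p = 0.183, unadjusted 0.0014), its fitted fold change depends on libraries at 0 and is not given, and it passed without the filter on low counts (adjusted p = 0.00573). The change from day 1 to day 4 differed between the untreated genotypes for 0 of the 9 genes (0% of all genes with edgeR). DESeq2 called 0 as well, 2 (*Arg1* and *Arg2*) had an unadjusted p below 0.05, and the smallest adjusted p was 0.272 for *Arg1*.

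4-OHT was examined in WT/FL cells, where it also deletes 1 *Trex1* allele, as the mean over 4 days of 4-OHT-treated minus untreated libraries. On day 2 *Trex1* had a mean of 57.2 CPM in 4-OHT-treated and 119 CPM in untreated WT/FL libraries. The drug and the lost allele cannot be told apart in this comparison. Of the 7 genes tested 0 passed in edgeR (0.557% of all genes did), although 4 had an unadjusted p below 0.05 and DESeq2 called 1 (*Glud1*). The log2 difference was -0.08 for *Glud1* (95% interval -0.13 to -0.035, edgeR adjusted p = 0.0832), 1.21 for *Arg2* (0.52 to 1.91, adjusted p = 0.0786), 0.72 for *Nos2* (0.042 to 1.40, adjusted p = 0.470) and 0.15 for *Ass1* (0.045 to 0.26, adjusted p = 0.229). *Acod1* and *Odc1* had intervals of -0.084 to 0.26 and -0.046 to 0.13. For *Glul* and *Slc25a22*, whose 4-OHT-treated WT/FL libraries were part of their choice, the intervals are given without a test, -0.058 to 0.075 for *Glul* and 0.022 to 0.21 for *Slc25a22*. Without a filter on low counts 2 genes (*Arg2* and *Ass1*) passed. Single days departed from these means, and their values are given as a description. On day 3 the log2 difference was 0.43 for *Ass1* (standard error 0.101), 0.30 for *Slc25a22* (0.088) and 1.58 for *Nos2* (0.577). *Acod1* stood at 0.25 (0.162), *Glud1* at -0.14 (0.0454) and *Arg2* at 1.55 (0.531). For these genes the 4-OHT-treated and untreated WT/FL libraries of day 3 did not overlap, nor did those of *Arg1* (1 and 0 against 3 and 1 counts). Those of *Glul* (-0.06) and *Odc1* (0.03) did. The share of all genes without overlap was not counted, and 2 against 2 libraries can lie apart without a difference. The smallest edgeR adjusted p of the members on that day was 0.0609, for *Ass1*.

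**Figure D3:**
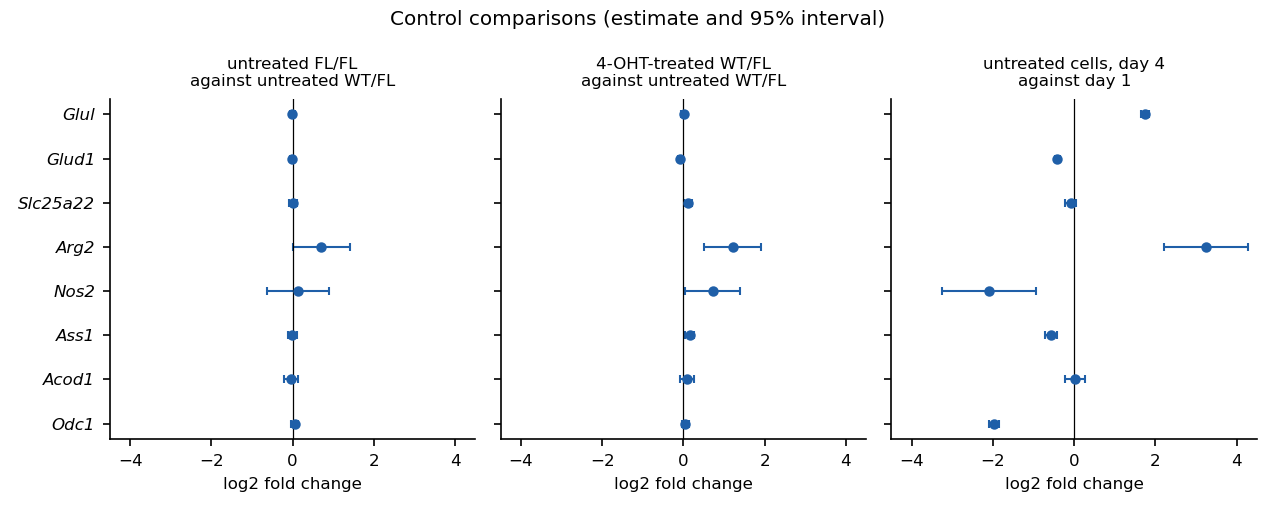
Log2 fold change (x axis) with its 95% interval for 8 genes between untreated genotypes (left), between 4-OHT-treated and untreated WT/FL cells (middle), both as the mean over 4 days, and between days 4 and 1 in untreated cells of both genotypes (right). Averaged over the days, the well expressed genes lie close to 0 in the left and middle panels. On the right *Glul* stands at 1.74, *Arg2* at 3.25 and *Odc1* at -1.97.

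Time in culture moved most of the 9 genes without any 4-OHT. Between days 1 and 4, as the mean of both untreated genotypes, *Glul* and *Arg2* rose and *Glud1*, *Arg1*, *Nos2*, *Ass1* and *Odc1* fell, so that 7 of 9 passed the edgeR test, while 64% of all genes did. *Glul* rose by a log2 fold change of 1.74 (95% interval 1.64 to 1.84, adjusted p = 1.75e-22) and *Arg2* by 3.25 (2.22 to 4.27, adjusted p = 1.06e-06). *Odc1* fell by 1.97 (adjusted p = 2.10e-21), *Ass1* fell by 0.57 (adjusted p = 2.01e-07) and *Glud1* fell by 0.42 (adjusted p = 3.82e-12), all on the log2 scale with edgeR. *Nos2* fell by 2.10 (adjusted p = 0.00145 in edgeR), a call that was lost without the first untreated WT/FL library of day 1 (adjusted p = 0.0166) or of day 4 (adjusted p = 0.0101). For *Arg1* the fall was at least 27.5-fold in untreated FL/FL cells, from a mean of 1.96 CPM on day 1 to libraries with 0 counts on day 4, taken at a floor of 3 counts per library. In untreated WT/FL cells its fall was smaller, from a mean of 1.56 CPM on day 1 to 0.101 CPM on day 4 (6 and 3 counts). *Slc25a22* (log2 fold change -0.08, interval -0.22 to 0.053) and *Acod1* (0.0099, interval -0.23 to 0.25) did not pass.

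The steps between single days placed these changes. From day 1 to 2, 7 of 9 genes passed the edgeR test (49.6% of all genes): *Glul*, *Slc25a22*, *Nos2* and *Acod1* rose and *Glud1*, *Arg1* and *Odc1* fell. From day 2 to 3, 6 passed (48.2% of all genes), with *Glul* and *Arg2* higher and *Glud1*, *Slc25a22*, *Ass1* and *Odc1* lower. From day 3 to 4, 5 passed (22.5% of all genes), with *Odc1* higher and *Glud1*, *Slc25a22*, *Nos2* and *Acod1* lower. Most of the rise of *Glul* fell between days 2 and 3 (log2 fold change 1.26, adjusted p = 4.45e-19), that of *Slc25a22* (0.63, adjusted p = 1.50e-09) and *Acod1* (0.89, adjusted p = 2.58e-06) between days 1 and 2, and that of *Arg2* between days 2 and 3 (2.39, adjusted p = 3.44e-05), all with edgeR.

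Several of these steps rested on single libraries. The day 1 to 2 rise of *Nos2* (1.39, edgeR adjusted p = 0.00484) missed the threshold without the second untreated WT/FL library of day 1 (0.0317), the first untreated WT/FL library of day 2 (0.0321), either untreated FL/FL library of day 1 (0.0184 and 0.0163) or the first of day 2 (0.0281). For *Glud1* the day 1 to 2 fall missed it without the second untreated FL/FL library of day 1 (0.0105). The day 3 to 4 fall of *Glud1* missed it without the second WT/FL library of day 3 (0.0197) or of day 4 (0.0196), or the first FL/FL library of day 3 (0.0105) or of day 4 (0.0102). *Acod1* passed from day 2 to 3 when the first untreated WT/FL library of day 2 was left out (adjusted p = 0.00822, against 0.0334 with it).

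Across all 32 libraries the 9 genes fell into different patterns. The log2 CPM of *Slc25a22* ran with *Acod1* (Pearson's r = 0.951, n = 32) and *Nos2* (r = 0.895), and *Nos2* ran with *Acod1* (r = 0.896) and *Ass1* (r = 0.816). *Arg1* ran with *Odc1* (r = 0.921), both highest on day 1 in every group. *Glul* had r = -0.32 with *Slc25a22* and r = 0.73 with *Arg2*. These are descriptions over libraries that share day, genotype and treatment, and they carry no p.

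Among all tested genes the pattern of *Glul* over the 32 libraries was most like that of *Slc43a2*, a transporter of neutral amino acids (r = 0.989), followed by *Dnajb14* (0.978), *Tsku* (0.978), *Mturn* (0.973) and *Sema4a* (0.973). Their log2 fold changes between the 4-OHT-treated genotypes on day 4 were -0.65, -0.64, -1.38, -2.32 and -0.74. *Slc25a22* was most like *Mlkl*, the effector of necroptosis (r = 0.977), *Tent4a* (0.977), *Setdb2* (0.972), *Tpst1* (0.970) and *Max* (0.969). On day 4 these stood at 1.25, 1.17, 1.62, 1.61 and 0.46. Both lists were picked by likeness in the same libraries and were not tested.

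The pathways around the 9 genes were followed in 78 further genes, of which 73 passed the filter on low counts, and these were tested between 4-OHT-treated FL/FL and WT/FL cells. This list was chosen with earlier results of these data known, so its counts are not independent of them. On day 1, 0 of 73 passed the edgeR test, with 0 at an unadjusted p below 0.05 and 0 in DESeq2. On day 2, 14 passed (8 higher, 6 lower), on day 3, 16 (11 higher, 5 lower) and on day 4, 24 (10 higher, 14 lower), beside 8.17%, 12.1% and 21.5% of all tested genes. The median log2 fold change over the 73 genes was 0.01, 0.06 and -0.03 on days 2 to 4, beside -0.0097, -0.0073 and -0.04 over all tested genes. Past both thresholds were 0 genes on day 2 (DESeq2 0, 26 at an unadjusted p below 0.05), 1 on day 3 (*Asns*) and 1 on day 4 (*Slc7a11*), beside 0.583%, 0.872% and 2.98% of all genes. When the difference between untreated genotypes was subtracted, 4 genes passed on day 2 (*Atp13a3*, *Gch1*, *Slc25a12* and *Slc3a2*) and 8 on day 3. Leaving out the second WT/FL library or the first or second FL/FL library of day 2 left 7, 8 and 7 genes, and leaving out the first WT/FL library of day 3 left 10. For the pathway genes below, rose and fell refer to FL/FL against WT/FL cells of the same day and not to a change over days.

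**Figure D4:**
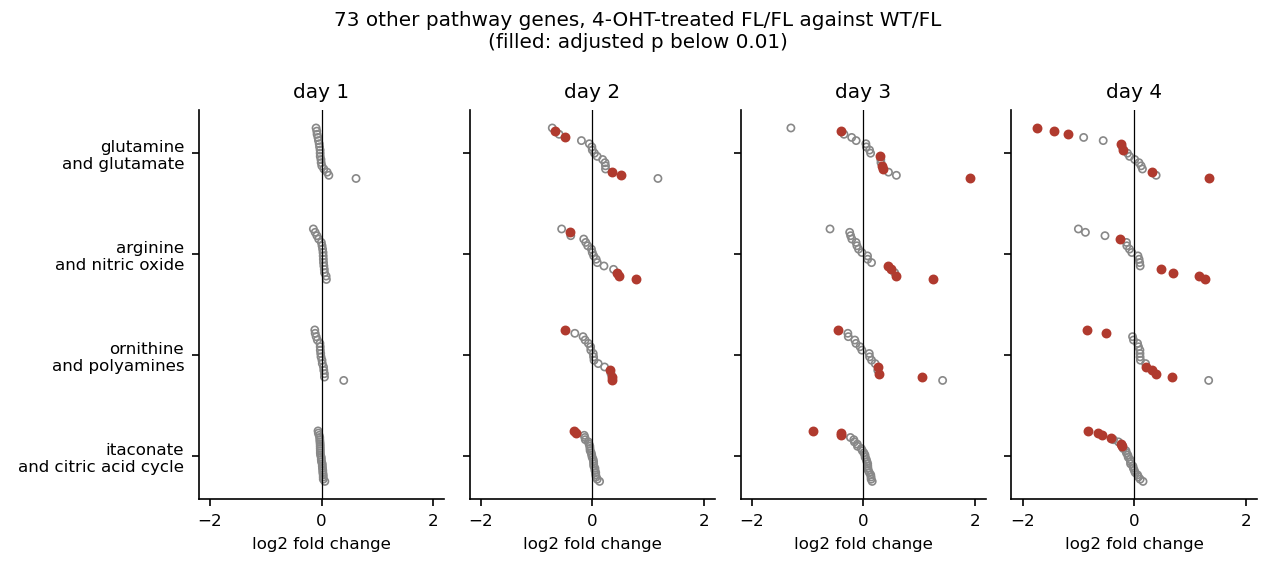
Log2 fold change (x axis) of the 73 tested pathway genes in 4-OHT-treated FL/FL against WT/FL cells on each day, by pathway (rows, genes spread vertically by rank); filled red points have an adjusted p below 0.01. No point is filled on day 1, and in the itaconate and citric acid cycle row every filled point on days 2 to 4 lies left of 0.

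Of 17 glutamine and glutamate genes, 2 rose and 2 fell on day 2, 4 rose and 1 fell on day 3, and 2 rose and 5 fell on day 4, when 8.17%, 12.1% and 21.5% of all genes passed in either direction. *Asns*, asparagine synthetase, which uses glutamine as its nitrogen donor, stood furthest above WT/FL cells on day 3. It had 49.1 and 46.0 CPM in FL/FL against 12.4 and 12.9 CPM in WT/FL cells (log2 fold change 1.91, standard error 0.102, edgeR adjusted p = 8.85e-13). Both FL/FL libraries lay far above those of WT/FL, and *Asns* had also passed on day 2 (0.51) and passed on day 4 (1.34). Its level dropped between days 2 and 3 in every group. The mean went from 150 to 47.6 CPM in treated FL/FL cells and from 105 to 12.6 CPM in treated WT/FL cells. *Slc7a11*, the cystine and glutamate exchanger, fell on day 4, with 5.76 and 5.87 CPM in FL/FL against 21.9 and 16.8 CPM in WT/FL cells (log2 fold change -1.73, standard error 0.22, edgeR adjusted p = 2.28e-06). The glutamate-cysteine ligase subunits *Gclm* (-1.44) and *Gclc* (-1.18), which start glutathione synthesis from glutamate, fell with it on day 4 and had fallen on day 2 (-0.66 and -0.48). On day 3 *Gclc* passed as lower (-0.40) and *Gclm* did not pass (-0.35). *Gclm* passed both thresholds on day 4 as well, making 2 genes, when the second WT/FL library or the first FL/FL library of that day was left out. With the untreated difference subtracted 0 genes passed both thresholds on day 4.

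Of 21 arginine and nitric oxide genes 16 were tested. There 3 rose and 1 fell on day 2, 4 rose and 0 fell on day 3, and 4 rose and 1 fell on day 4, against the same 8.17%, 12.1% and 21.5% of all genes. *Gch1*, GTP cyclohydrolase, which starts the synthesis of the nitric oxide synthase cofactor tetrahydrobiopterin, rose on day 2 (75.4 and 78.2 against 47.2 and 42.3 CPM, log2 fold change 0.78, edgeR adjusted p = 1.67e-07) and on day 4 (47.2 and 47.1 against 19.6 and 19.4 CPM, 1.27, adjusted p = 7.87e-12). The FL/FL libraries were higher than those of WT/FL without overlap on both days, and *Gch1* also passed as higher on day 3 (0.58, edgeR adjusted p = 1.61e-05). *Slc7a1*, a cationic amino acid transporter that imports arginine, was higher in FL/FL cells on day 3 (31.6 and 32.7 against 11.88 and 15.16 CPM, 1.25, edgeR adjusted p = 1.87e-08). It also passed as higher on day 4 (0.69, edgeR adjusted p = 2.91e-05). Its level dropped between days 2 and 3 in every group. The mean went from 96.0 to 32.2 CPM in treated FL/FL cells and from 73.8 to 13.5 CPM in treated WT/FL cells. *Gatm*, which uses arginine for creatine synthesis, rose by 1.16 on day 4 (adjusted p = 3.65e-09 in edgeR), and *Slc3a2*, the heavy chain of several amino acid transporters, by 0.47 on day 2 (adjusted p = 6.29e-07). Both passed on days 2, 3 and 4, with *Gatm* at 0.44 on days 2 and 3 and *Slc3a2* at 0.49 on days 3 and 4.

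All 16 ornithine and polyamine genes were tested. Of them 3 rose and 1 fell on day 2, 3 rose and 1 fell on day 3, and 4 rose and 2 fell on day 4, where the shares of all genes were 8.17%, 12.1% and 21.5%. *Aldh18a1*, which makes the proline and ornithine precursor from glutamate, was higher in FL/FL cells on day 3 (18.2 and 16.6 CPM in FL/FL against 8.09 and 8.64 CPM in WT/FL, log2 fold change 1.05, edgeR adjusted p = 8.41e-10). It also passed as higher on day 2 (0.32) and day 4 (0.39). Its level dropped between days 2 and 3 in every group. The mean went from 66.4 to 17.4 CPM in treated FL/FL cells and from 53.1 to 8.37 CPM in treated WT/FL cells. The polyamine transporter *Atp13a3* fell on day 2 (-0.50, adjusted p = 3.02e-06), day 3 (-0.46, adjusted p = 9.57e-06) and day 4 (-0.85, adjusted p = 9.78e-11), all with edgeR. Its FL/FL libraries had 97.8 and 96.2 CPM on day 2 against 136 and 138 CPM in WT/FL cells, and the groups did not overlap.

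Of 24 itaconate and citric acid cycle genes 2 fell on day 2, 3 on day 3 and 6 on day 4, close to the shares of all genes on these days (8.17%, 12.1% and 21.5%). None passed as higher in edgeR, while DESeq2 called *Sdhb*, a succinate dehydrogenase subunit, on days 3 and 4, where it stood at 0.16 on both days in edgeR (log2 scale, adjusted p = 0.0282 on day 3 and 0.020 on day 4). *Sdhb* was named after its values were seen. *Fh1*, fumarase, had 53.5 and 54.1 CPM in FL/FL against 110 and 91.7 CPM in WT/FL cells on day 3 (log2 fold change -0.91, edgeR adjusted p = 3.36e-10). *Idh1*, the cytosolic isocitrate dehydrogenase, fell on day 3 (-0.40, adjusted p = 1.00e-05 in edgeR), with 201 and 202 CPM in FL/FL against 276 and 255 CPM in WT/FL cells. Both enzymes were lower in every FL/FL library than in any WT/FL library of that day. *Fh1* and *Idh1* also passed as lower on day 2 (-0.32 and -0.29) and day 4 (-0.65 and -0.84).

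Sequence shared with other genes could affect 4 of the 9 estimates. *Slc25a22*, *Arg1*, *Arg2*, *Nos2* and *Acod1* shared 0% of the 31-base words of their transcripts with other genes. *Glul* shared 16.3%, mainly with *Glns-ps1* (0 to 2 counts per library), *Ass1* 23.7%, mainly with *Gm5424* (0 to 14 counts), *Odc1* 18.7%, mainly with *Gm7993* (0 to 4 counts), and *Glud1* 11.6%, of which 4.73% of its words with *Bcl7c*, an expressed gene (407 to 1061 counts per library). How the authors' quantification divided such reads was not tested.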

How the data were processed

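RNA of 32 BMDM libraries was sequenced. Transcript abundance had been estimated by the authors with Salmon (reference GRCm39) and combined into genes with tximport. What they deposited are estimated counts, whole numbers without normalization. Samples were grouped by genotype, treatment and day from the labels. GENCODE vM39 gave a symbol for 51048 of 54281 identifiers, and the others held 0.320% of the counts. Totals per library had a median of 44841991. The floor of 3 counts covers counting error only.

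These counts went into edgeR 4.0.16 under R 4.3.3 (filter with a minimum count of 10, which kept 15257 genes; TMM factors; robust quasi-likelihood fit with 16 group means and 16 residual degrees of freedom) and Benjamini-Hochberg adjustment over all tested genes at 0.01. CPM used TMM library sizes, and log2 CPM a prior count of 2. The script was tested on simulated data. Members and gene lists were chosen with earlier results of these data known. Genes were named by rule: the 9 members, *Trex1*, on each day pathway genes past both thresholds and the 3 highest and 3 lowest of those that passed, and the 5 genes most like *Glul* and *Slc25a22*. Genes that stand behind a small count under another setting are named in addition. Results were recomputed with DESeq2 1.42.0, RLE or upper-quartile factors, different filters, fits of only the 16 treated, untreated or WT/FL libraries, other controls and thresholds, and leaving out each library.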

Additional observations from a re-analysis of the deposited data

How the results depend on the processing

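No paired analysis was possible because the labels carry no replicate number, animal or batch that would tie libraries of different groups. Small differences changed sign. For the untreated genotypes, leaving out single libraries gave log2 values of -0.026 to 0.0094 for *Glul*, -0.020 to 0.00090 for *Glud1*, -0.027 to 0.039 for *Slc25a22*, -1.14 to 0.33 for *Nos2*, -0.047 to 0.038 for *Ass1* and -0.096 to 0.0075 for *Acod1*. *Acod1* from day 1 to 4 in untreated cells turned to -0.018 with RLE factors, -0.0061 with upper-quartile factors, -0.019 with DESeq2 and -0.0077 in a fit of untreated libraries (-0.058 to 0.069 with libraries left out). *Ass1* from day 1 to 2 turned to -0.0057, -0.016 and -0.0057 with RLE, upper-quartile factors and DESeq2 (-0.0031 to 0.053 with libraries left out), and *Arg2* from day 3 to 4 ranged from -0.45 to 0.036 with libraries left out. None of these passed the test in any of the named settings.

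Counts of pathway genes past the test ranged from 7 to 11 on day 2 and 10 to 14 on day 3 with a library left out, and were 4 and 8 with the untreated difference subtracted. Past both thresholds stood 2 genes on day 3 (*Asns* and *Slc7a1*) and 2 on day 4 (*Slc7a11* and *Gclm*) against untreated FL/FL cells, 3 and 6 with a limit of 1 on the log2 fold change, 0 on day 4 with the untreated difference subtracted, and 1 to 2 on day 4 with a library left out. Without a filter 1 of the 9 genes (*Arg1*) passed between untreated genotypes and 2 (*Arg2* and *Ass1*) for 4-OHT in WT/FL cells, where DESeq2 called 1 (*Glud1*). The untreated day 1 to 2 rise of *Nos2* and the day 3 to 4 fall of *Glud1* missed the threshold in a fit of untreated libraries (adjusted p = 0.0135 and 0.0344). The falls of *Glud1* from day 1 to 2 and from day 3 to 4 missed it without a filter (0.0354 and 0.0509), where *Acod1* and *Nos2* passed as lower from day 2 to 3 (2.71e-09 and 0.00954). The other counts, 98 with a library left out and 115 under other settings, stayed within 1.5 times the reported ones. The causes were not tested. Depth limits *Arg1*, *Arg2* and *Nos2*, whose counts reached at most 123, 129 and 418 per library.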
